A study of Mus musculus with 4 samples.

Results

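Neuropeptides are short signalling chains cut from larger precursor proteins, stored in dense core vesicles and released onto receptors that are mostly coupled to G proteins. In the hippocampus many of the precursor genes are read mainly in inhibitory interneurons, although Cck, Penk and Pdyn were not in these data. Which peptide a cell makes is a long-used way to tell interneuron types apart. Somatostatin marks dendrite-targeting interneurons, VIP marks interneurons that mostly inhibit other interneurons, and neuropeptide Y is made by several types. This account follows 10 genes by their symbols among the 27998 genes of the deposited count tables: the 9 peptide precursor genes Sst, Cort, Npy, Tac1, Penk, Vip, Cck, Pnoc and Pdyn, and Crhbp, which encodes a secreted protein that binds corticotropin-releasing hormone. All 10 were found in each of the 4 libraries.

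Nuclei came from frozen hippocampi of B6 mice at 9 months of age, and RNA was counted with a droplet-based 3′ kit as unique molecular identifiers (UMIs, 1 per captured RNA molecule). There were 4 genotypes with 1 pooled library each: P301S/EKO (7 hippocampi), P301S (8), EKO (7) and WT (7). P301S names mice carrying a mutant form of human tau, EKO is read here as loss of Apoe (the Apoe counts below bear on it), and P301S/EKO mice have both. The labels do not state the transgenic line, its promoter or the form of the Apoe allele. With 1 pool per genotype there was no replicate: the spread between mice is unknown, no test between genotypes could be made, and each interval below covers counting error only. The 4 comparisons (P301S/EKO over P301S or over EKO, and P301S or EKO over WT) share libraries, so they are not independent of each other.

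Several features of the libraries bear on every value. Both libraries without Apoe held little of its RNA, with 19.8 UMIs per 1000000 UMIs of the class (counts per 1000000, CPM) in P301S/EKO and 16.2 CPM in EKO, against 6489 CPM in P301S and 1899 CPM in WT. Median UMIs per kept nucleus were lower in P301S/EKO (1420) and EKO (1444) than in P301S (2146) and WT (1904). Inhibitory neuron-like nuclei numbered 571 in P301S/EKO, 580 in P301S, 596 in EKO and 595 in WT, and made up 13.6%, 28.4%, 13.3% and 14.3% of neurons in that order, a share that was higher in P301S. The EKO library stood apart in holding pituitary hormone RNA: growth hormone (Gh) gave 6, 1, 3516 and 0 UMIs in P301S/EKO, P301S, EKO and WT, and prolactin (Prl) gave 0, 1, 1487 and 0. Inhibitory neuron-like nuclei of the EKO library held 45 Gh UMIs. Between 13 and 50 cell barcodes were shared by any 2 libraries, at most 0.962% of a library's kept nuclei. In droplet data free RNA adds UMIs to nuclei that do not express a gene, so the level in glia-like nuclei of the same library is given below as a yardstick. It is a coarse one, as it differs with the glia pooled. Over the 4 libraries the neuronal marker Syt1 was at 756 CPM in glia-like nuclei and 1171 CPM in all neurons. Microglia-like nuclei held 835 CPM of it and astrocyte-like nuclei 335 CPM. In bulk counts of a class, fewer expressing nuclei and less RNA per nucleus cannot be told apart, so the share of positive nuclei is given as well.

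The start regions of 5 of the genes are shown because these 5 had the largest ratios of EKO over WT in inhibitory nuclei, described below. Each run gives the 250 bases before the RefSeq start site on the gene's own strand (GRCm38.p6), 5′ to 3′, and capitals mark every match to TGACG on either strand, the core of the cyclic AMP response element. The full palindrome TGACGTCA occurs where both strands match over 8 bases.
Sst, chr16:23890845-23891094, minus strand: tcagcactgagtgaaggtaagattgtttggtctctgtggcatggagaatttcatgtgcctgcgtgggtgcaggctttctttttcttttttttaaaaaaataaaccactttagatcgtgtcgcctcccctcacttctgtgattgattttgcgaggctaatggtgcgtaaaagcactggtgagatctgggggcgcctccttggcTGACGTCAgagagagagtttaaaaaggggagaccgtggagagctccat
Cort, chr4:149126764-149127013, minus strand: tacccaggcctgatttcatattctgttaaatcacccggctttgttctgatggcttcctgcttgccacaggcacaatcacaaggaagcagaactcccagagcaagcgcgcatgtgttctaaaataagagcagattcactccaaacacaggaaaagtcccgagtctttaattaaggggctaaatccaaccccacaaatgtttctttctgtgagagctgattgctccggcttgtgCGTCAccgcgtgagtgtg
Crhbp, chr13:95444832-95445081, minus strand: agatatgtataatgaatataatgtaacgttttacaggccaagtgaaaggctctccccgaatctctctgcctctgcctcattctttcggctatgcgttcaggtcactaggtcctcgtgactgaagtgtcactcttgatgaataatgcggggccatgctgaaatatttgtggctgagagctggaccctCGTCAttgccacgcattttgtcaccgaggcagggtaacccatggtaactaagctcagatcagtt
Npy, chr6:49822460-49822709, plus strand: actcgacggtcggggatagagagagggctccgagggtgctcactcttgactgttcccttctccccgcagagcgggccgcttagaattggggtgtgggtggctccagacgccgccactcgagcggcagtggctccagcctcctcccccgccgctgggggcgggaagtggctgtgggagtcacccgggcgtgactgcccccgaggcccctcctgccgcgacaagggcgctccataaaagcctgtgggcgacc
Tac1, chr6:7554811-7555060, plus strand: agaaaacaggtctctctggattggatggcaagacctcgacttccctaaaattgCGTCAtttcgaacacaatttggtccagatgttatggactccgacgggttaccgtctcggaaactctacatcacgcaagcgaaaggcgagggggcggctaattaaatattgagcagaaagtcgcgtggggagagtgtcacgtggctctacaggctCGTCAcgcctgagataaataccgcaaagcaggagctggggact
Sst held the palindrome, beginning 48 bases before the start site, and it contains both of that window's TGACG matches. Cort held its match at 18 bases and Crhbp at 64 bases before the start, Tac1 held matches at 197 and 43 bases, and Npy held none. Among the 8 members in the RefSeq table, Sst, Cort, Crhbp, Tac1, Vip and Cck (6 of 8) held TGACG and 1 held TGACGTCA. Of all 32851 windows of this length in the table, 17.8% held TGACG and 1.55% held TGACGTCA. These matches describe letters in the windows only. The Sst, Crhbp and Tac1 windows overlap the GENCODE gene positions given below, so part of each lies within the annotated gene. The Sst palindrome, the Crhbp match and the Tac1 match at 43 bases lie in that part.

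Nuclei were clustered without the 10 genes, so the classes below did not rest on them. Of all Sst UMIs in kept nuclei, 72.6% lay in inhibitory neuron-like nuclei, as did 68.6% of Npy, 70.3% of Crhbp, 70.7% of Tac1 and 62.3% of Cort UMIs. Within those nuclei, the Sst-type-like subclass (495 nuclei, led by Elfn1 and Grin3a) held 84.1% of Sst and 56.1% of Crhbp UMIs. It also held 45.4% of Npy and 36.5% of Cort UMIs. The Pvalb-type-like subclass (555 nuclei) held 43.9% of Cort and 33.7% of Crhbp UMIs. The neurogliaform-like subclass (388 nuclei in a pair of subclusters with Lamp5 among their leading genes) held 24.2% of Npy UMIs. It held not 1 Crhbp UMI in any library. A subcluster led by Calb2, Htr3a and Tac2 (229 nuclei) carried Vip and Penk, and another led by Cnr1, Krt73 and Slc17a8 (314 nuclei) carried Cck; both had been named Vip- or Cck-type-like from other markers. A further 215 inhibitory nuclei formed a subcluster with Cga, Ebf1, Tcf7l2, Lhb and Slc17a6 as its leading genes. Ebf1, Tcf7l2 and Slc17a6 go against its marker name, so it was left unnamed. It had 38 nuclei in P301S/EKO, 37 in P301S, 44 in EKO and 96 in WT. Cga, a hormone subunit gene, gave 214 UMIs in 5 inhibitory neuron-like nuclei of EKO and 0 in those of the other libraries.

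**Figure D1:**
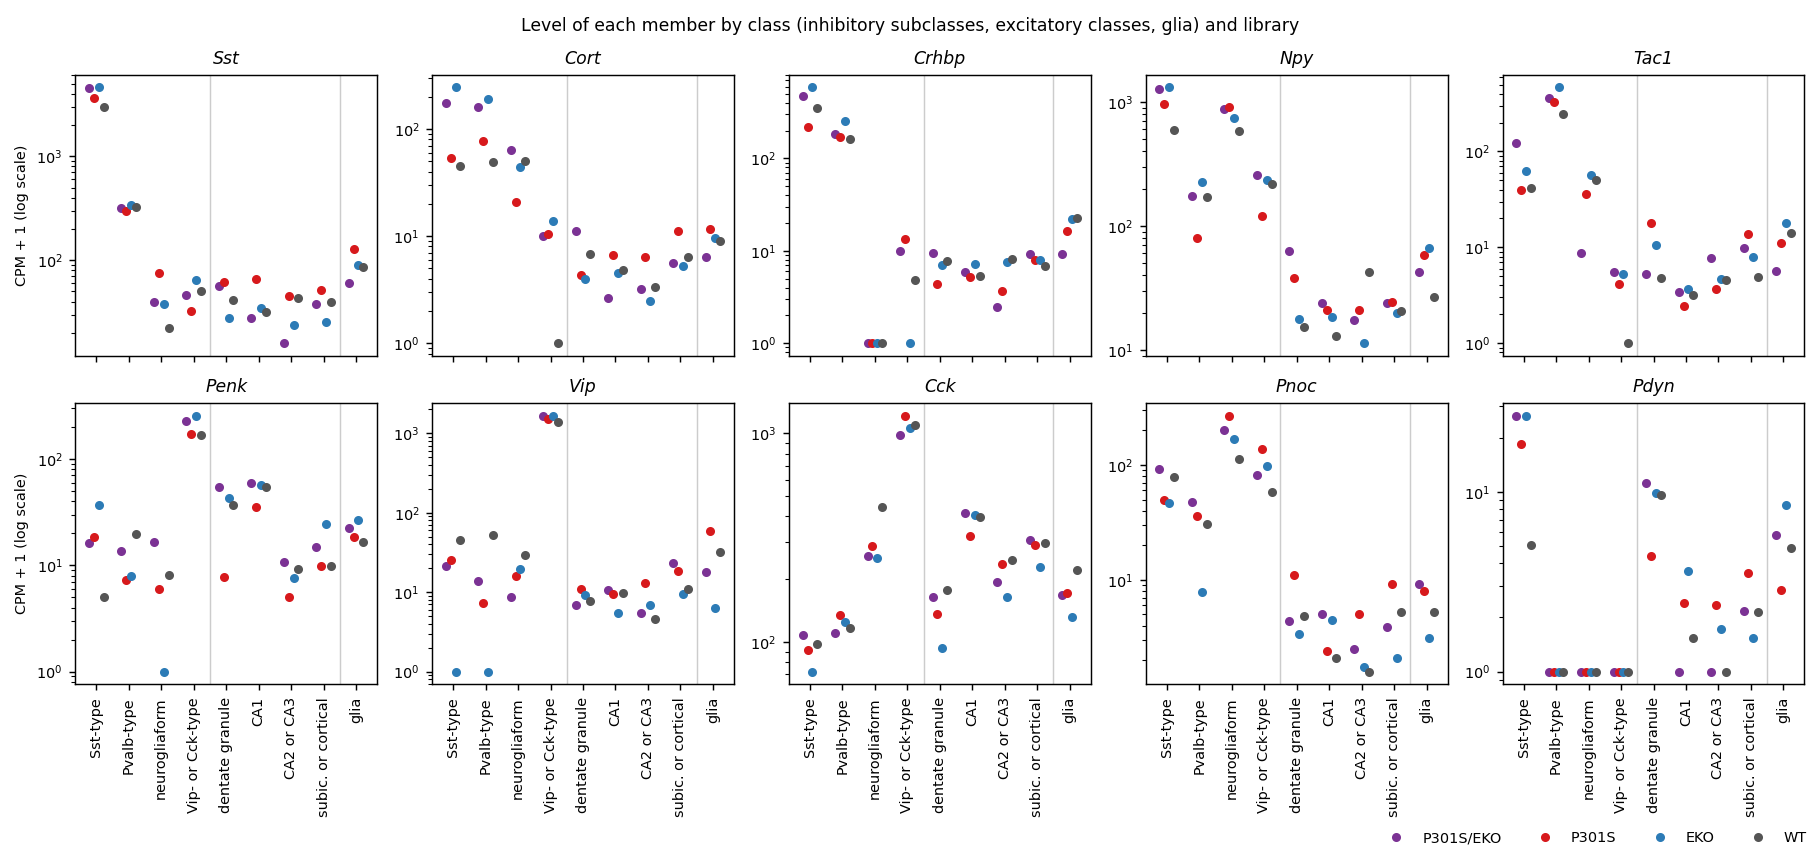
Level of each gene (vertical axis, CPM + 1 on a log scale) in 4 inhibitory subclasses, 4 excitatory classes and glia-like nuclei (horizontal axis), with 1 point per library. Sst is highest in the Sst-type-like subclass in all 4 libraries (2967 to 4615 CPM), Tac1 in the Pvalb-type-like, Vip, Penk and Cck in the Vip- or Cck-type-like, and Crhbp is at 0 in the neurogliaform-like subclass of every library.

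Taking all inhibitory neuron-like nuclei together, the largest set of differences lay between EKO and WT. A gene was counted as beyond the threshold when its CPM differed at least 1.5-fold and the pair of libraries held at least 20 UMIs; 9 of the 10 genes could be judged, as Pdyn had only 2 to 6 UMIs per library. For EKO over WT, 4 of 9 passed upward (Cort, Crhbp, Npy and Tac1) and 0 downward, while 7.60% of 9539 genes passed upward and 9.62% downward. For P301S/EKO over P301S, 2 of 9 were higher (Cort and Crhbp) and 0 lower, beside 4.99% of 9779 genes higher and 15.0% lower. For P301S over WT only Pnoc was higher, 1 of 9, and 0 were lower, beside 13.4% of 10174 genes higher and 4.50% lower, a share near the background. None of the 9 passed for P301S/EKO over EKO (0 higher and 0 lower), beside 8.83% of 9057 genes higher and 6.82% lower. The median log2 ratio of the 9 genes was 0.58 for EKO over WT (all genes 0.01), 0.22 for P301S/EKO over P301S (all genes -0.10), 0.33 for P301S over WT (all genes 0.12) and -0.19 for P301S/EKO over EKO (all genes -0.00). The make-up of the class differed. The subcluster led by Ebf1, Tcf7l2 and Slc17a6 was 6.7%, 6.4%, 7.4% and 16.1% of it in P301S/EKO, P301S, EKO and WT. Other unnamed inhibitory nuclei were 6.1%, 7.6%, 2.5% and 8.7% in that order. These shares enter every ratio of the class. Under the alternative with equal subclass shares, 1 ratio moved by more than its counting interval.

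**Figure D2:**
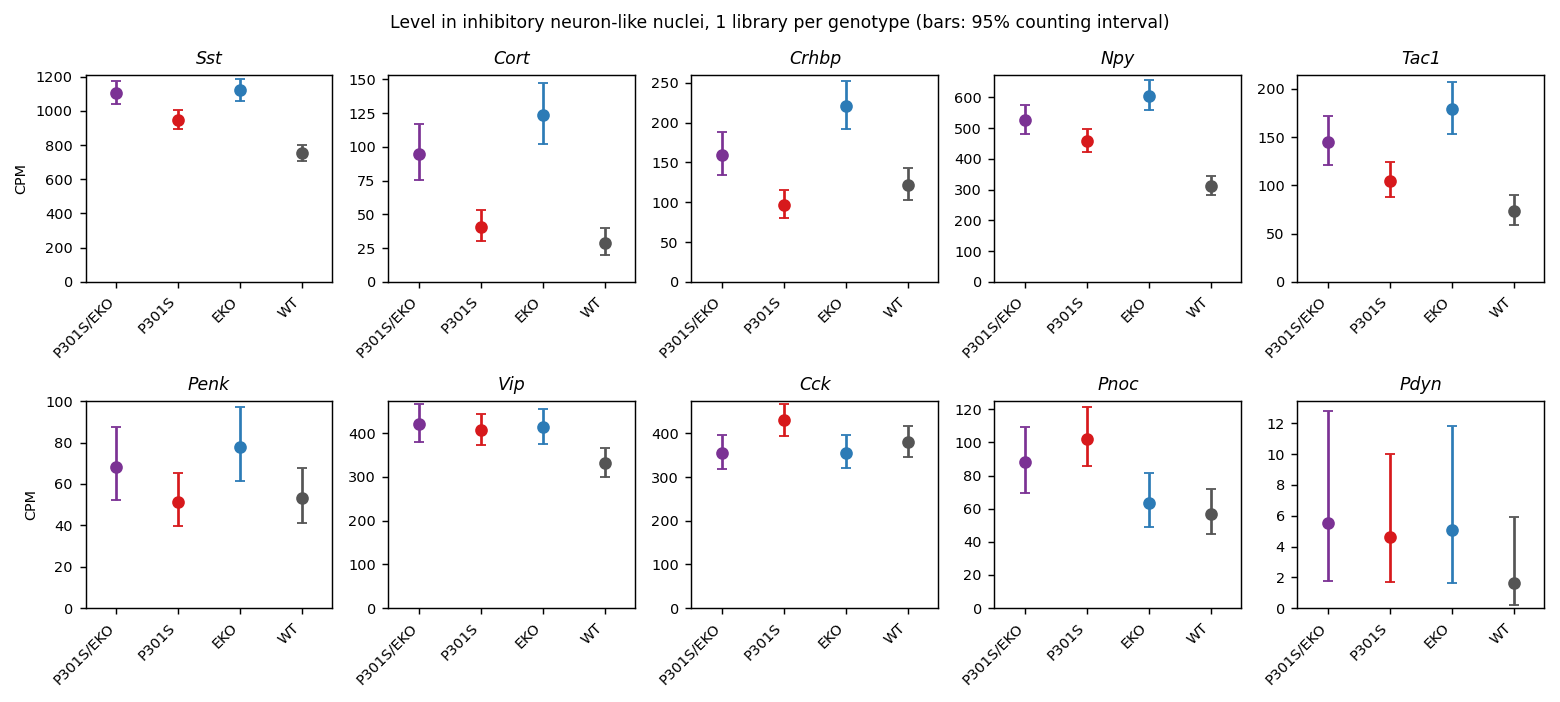
CPM of each gene in inhibitory neuron-like nuclei (vertical axes start at 0) by library, with 95% Poisson counting intervals as bars. Cort, Crhbp and Tac1 are higher in both EKO libraries (P301S/EKO and EKO) than in P301S and WT, and Pnoc is higher in both P301S libraries (P301S/EKO and P301S) than in EKO and WT.

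**Figure D3:**
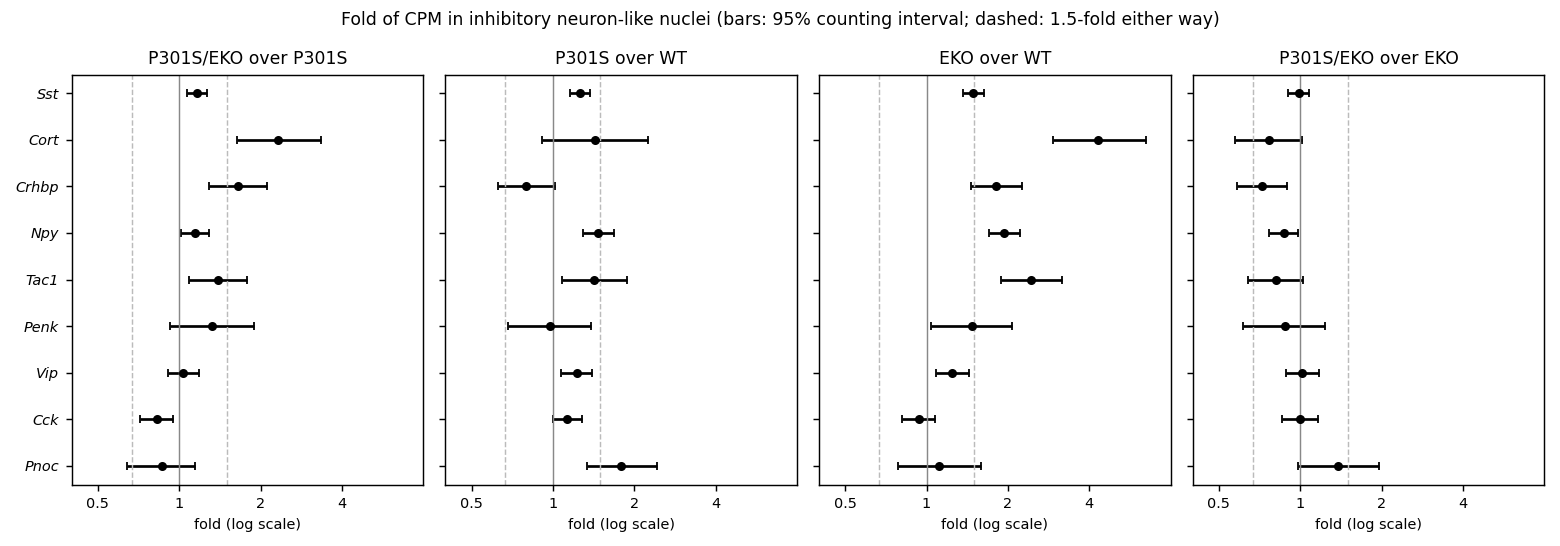
Ratio of CPM in inhibitory neuron-like nuclei for the 4 comparisons (horizontal axes, log scale) and 9 genes, with 95% counting intervals; dashed lines stand at 1.5-fold higher and lower. Cort for EKO over WT (4.32) and for P301S/EKO over P301S (2.32) lies farthest to the right in its panel, and no gene lies beyond a dashed line for P301S/EKO over EKO.

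Sst encodes the precursor of somatostatin, which dampens excitation of distal dendrites (ENSMUSG00000004366, chr16:23889573-23890958, minus strand, GRCm38). In inhibitory neuron-like nuclei it stood at 1105 CPM in P301S/EKO, 947 CPM in P301S, 1120 CPM in EKO and 752 CPM in WT, from 922 to 1232 UMIs per library. WT was the lowest and the EKO libraries the highest. The ratio was 1.49 for EKO over WT (95% counting interval 1.36 to 1.63), 1.26 for P301S over WT, 1.17 for P301S/EKO over P301S and 0.986 for P301S/EKO over EKO. With nuclei picked by Gad1, Gad2 and Slc17a7 UMIs in place of clusters, the log2 ratio of P301S/EKO over P301S was -0.20, against 0.22. Within the Sst-type-like subclass the level was 4550, 3668, 4615 and 2967 CPM in P301S/EKO, P301S, EKO and WT. There the EKO over WT ratio was 1.56 (1.41 to 1.72). The share of Sst-type-like nuclei with at least 1 Sst UMI was 85.8%, 91.0%, 91.5% and 87.2% in the same order. With each nucleus thinned to 1000 UMIs it was 86.7%, 84.2%, 90.8% and 78.5%, lowest in WT, with overlapping exact binomial intervals. In Pvalb-type-like nuclei Sst was 320, 298, 339 and 328 CPM in P301S/EKO, P301S, EKO and WT, and all 4 intervals overlapped.

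Cort encodes the precursor of cortistatin, a relative of somatostatin that acts on the same receptors. The gene lies at chr4:149125034-149126763 on the minus strand (ENSMUSG00000028971). It gave 86 UMIs (94.6 CPM) in inhibitory neuron-like nuclei of P301S/EKO, 53 UMIs (40.8 CPM) in P301S, 122 UMIs (123 CPM) in EKO and 35 UMIs (28.5 CPM) in WT. Both EKO libraries lay above both libraries with Apoe, and the intervals of the 2 pairs did not overlap: 75.6 to 117 CPM in P301S/EKO, and an upper bound of 53.3 CPM in P301S. The ratio was 4.32 for EKO over WT (2.95 to 6.49) and 2.32 for P301S/EKO over P301S (1.63 to 3.33). For P301S over WT it was 1.43 (0.914 to 2.25), and for P301S/EKO over EKO 0.766 (0.575 to 1.02). Both subclasses with the most Cort UMIs had higher levels in the 2 EKO libraries. In Sst-type-like nuclei Cort was 173, 52.2, 244 and 44.5 CPM in P301S/EKO, P301S, EKO and WT, with ratios of 5.47 for EKO over WT (2.80 to 11.7) and 3.32 for P301S/EKO over P301S (1.76 to 6.56). In Pvalb-type-like nuclei it was 160, 76.2, 189 and 48.4 CPM in that order, with ratios of 3.89 and 2.10. Neurogliaform-like nuclei held 8, 4, 7 and 7 UMIs, or 62.3, 19.8, 43.1 and 49.2 CPM, with EKO not above WT and overlapping intervals. In glia-like nuclei of the same libraries it was 5.32, 10.6, 8.56 and 8.08 CPM, on 61 UMIs over the 4 libraries. There P301S/EKO lay below P301S, and EKO lay close to WT. The part of free RNA was not tested with these few UMIs. Direction for P301S over WT was not stable: with nuclei picked by at least 2 UMIs of Gad1 and Gad2 and at most 1 of Slc17a7, in place of clusters, its log2 ratio was -0.92, against 0.51. The log2 ratio for EKO over WT stayed between 1.88 and 2.28 over all alternatives tried. Leaving out all nuclei with pituitary hormone UMIs gave a log2 ratio of 2.09 for EKO over WT, against 2.11 with them.

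Crhbp encodes the binding protein for corticotropin-releasing hormone (ENSMUSG00000021680, chr13:95431371-95444924, minus strand). Its level in inhibitory neuron-like nuclei was 159 CPM in P301S/EKO, 96.9 CPM in P301S, 221 CPM in EKO and 122 CPM in WT, from 126 to 218 UMIs. Both EKO libraries were again above the other two. The ratio was 1.81 for EKO over WT (1.47 to 2.25) and 1.65 for P301S/EKO over P301S (1.29 to 2.11). In Sst-type-like nuclei the level was 469, 219, 589 and 352 CPM in P301S/EKO, P301S, EKO and WT, and P301S was the lowest. The P301S over WT ratio there was 0.622 (0.443 to 0.870), and P301S/EKO over P301S 2.14 (1.54 to 3.00). The share of Sst-type-like nuclei with a Crhbp UMI was 33.1%, 27.8%, 31.4% and 34.2% in that order. Thinned to 1000 UMIs it was 29.5%, 18.0%, 29.6% and 21.6%, with both EKO libraries above P301S and WT and overlapping exact binomial intervals. In Pvalb-type-like nuclei Crhbp was 185, 171, 254 and 160 CPM, and the EKO over WT ratio was 1.58 (1.07 to 2.36). With 0 UMIs in 94, 104, 112 and 78 neurogliaform-like nuclei of P301S/EKO, P301S, EKO and WT, the counts allow shares of up to 3.19%, 2.88%, 2.68% and 3.85% of nuclei with a UMI (3 counts of the total). Crhbp in glia-like nuclei was 8.27, 15.2, 21.4 and 21.6 CPM.

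Npy encodes the precursor of neuropeptide Y, which lowers transmitter release through presynaptic receptors (ENSMUSG00000029819, chr6:49822710-49829507, plus strand). In inhibitory neuron-like nuclei it was 526 CPM in P301S/EKO, 459 CPM in P301S, 605 CPM in EKO and 312 CPM in WT. WT was the lowest, and its upper bound of 344 CPM lay under the lower bounds of the other libraries. Ratios were 1.94 for EKO over WT (1.71 to 2.21), 1.47 for P301S over WT (1.29 to 1.68), 1.14 for P301S/EKO over P301S and 0.869 for P301S/EKO over EKO. For P301S over WT the subclasses lay on both sides of 1. In Sst-type-like nuclei the level was 1279, 967, 1310 and 591 CPM in P301S/EKO, P301S, EKO and WT, and the P301S over WT ratio was 1.64 (1.33 to 2.01). Without the nucleus that held the most Npy UMIs in each library, that ratio was 1.28, and 1 P301S nucleus held 89 of the 278 UMIs. In neurogliaform-like nuclei Npy was 872, 909, 739 and 576 CPM, with a P301S over WT ratio of 1.58 (1.21 to 2.07), or 1.36 without the highest nuclei. In Pvalb-type-like nuclei it was 173, 79.4, 226 and 171 CPM, and P301S was below WT with a ratio of 0.463 (0.273 to 0.770). In Vip- or Cck-type-like nuclei it was 256, 119, 233 and 217 CPM, and the P301S over WT ratio was 0.548 (0.354 to 0.841). P301S was thus the lowest library for Npy in both the Pvalb-type-like and the Vip- or Cck-type-like subclass, and P301S/EKO over P301S was 2.18 (1.29 to 3.73) and 2.15 (1.40 to 3.32) there. For EKO over WT the ratio was 2.22 in Sst-type-like nuclei (1.80 to 2.73), 1.28 in neurogliaform-like, 1.32 in Pvalb-type-like and 1.07 in Vip- or Cck-type-like nuclei.

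**Figure D4:**
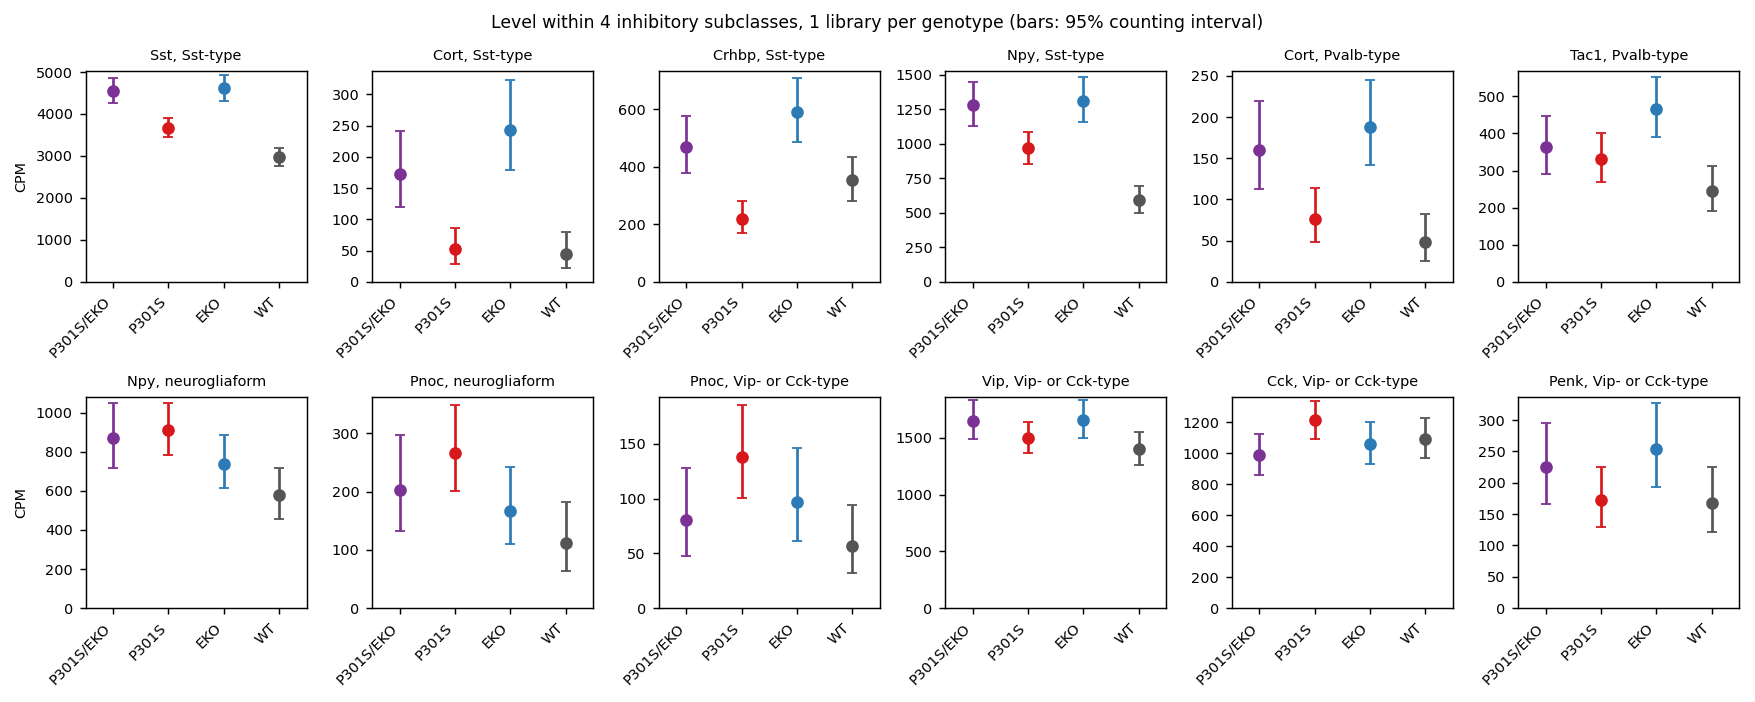
CPM of 12 pairs of gene and inhibitory subclass (vertical axes start at 0) by library, with 95% Poisson counting intervals. Cort is higher in P301S/EKO and EKO than in P301S and WT in both subclasses shown, Npy in the Sst-type-like subclass is lowest in WT (591 CPM), and Pnoc is highest in P301S in both subclasses shown (267 and 138 CPM).

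Tac1 encodes the precursor of substance P and neurokinin A (ENSMUSG00000061762, chr6:7554879-7565834, plus strand). Its level in inhibitory neuron-like nuclei was 145 CPM in P301S/EKO, 105 CPM in P301S, 179 CPM in EKO and 73.4 CPM in WT, from 90 to 177 UMIs. The ratio was 2.44 for EKO over WT (1.88 to 3.18), 1.43 for P301S over WT (1.08 to 1.88), 1.39 for P301S/EKO over P301S and 0.811 for P301S/EKO over EKO. With nuclei picked by Gad1, Gad2 and Slc17a7 UMIs, the log2 ratio of P301S over WT was -0.13, against 0.51 by clusters. Most of it lay in Pvalb-type-like nuclei, at 362, 330, 466 and 246 CPM in P301S/EKO, P301S, EKO and WT. EKO was the highest and WT the lowest, with a ratio of 1.90 (1.40 to 2.58), and 25.2% to 35.4% of these nuclei held a Tac1 UMI. In Sst-type-like nuclei P301S/EKO stood above the others with 24 UMIs (122 CPM), against 11, 12 and 10 UMIs in P301S, EKO and WT, and its ratio over P301S was 3.20 (1.51 to 7.23).

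The opioid family has 3 precursor genes here. Penk, the enkephalin precursor (ENSMUSG00000045573, chr4:4133531-4138819, minus strand), was at 68.2, 51.5, 77.9 and 53.0 CPM in inhibitory neuron-like nuclei of P301S/EKO, P301S, EKO and WT, from 62 to 77 UMIs. Its 4 intervals overlapped, and no ratio passed the threshold; EKO over WT came nearest at 1.47 (1.04 to 2.08), but its log2 ratio was -0.41 with nuclei picked by Gad1, Gad2 and Slc17a7 UMIs, against 0.55 by clusters. In the Calb2 and Htr3a subcluster Penk was at 658, 614, 720 and 651 CPM in that order, and between 41.3% and 52.3% of nuclei held it. Over the whole Vip- or Cck-type-like subclass it was at 224, 173, 254 and 168 CPM, and the EKO over WT ratio was 1.51 (1.01 to 2.28). The annotation places a noncoding gene, A830012C17Rik, on the opposite strand over the first part of Penk; it is not among the counted genes.

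Pnoc, the precursor of nociceptin (ENSMUSG00000045731, chr14:65400673-65425472, minus strand), was the gene for which P301S differed most from WT. It was at 88.0, 102, 63.7 and 57.1 CPM in inhibitory neuron-like nuclei of P301S/EKO, P301S, EKO and WT. Both P301S libraries lay above the other two, with a ratio of 1.79 for P301S over WT (1.33 to 2.43) and 1.38 for P301S/EKO over EKO (0.980 to 1.95). In neurogliaform-like nuclei the level was 202, 267, 166 and 113 CPM, and the P301S over WT ratio was 2.37 (1.34 to 4.44). In Vip- or Cck-type-like nuclei it was 80.8, 138, 97.3 and 57.2 CPM, with a ratio of 2.41 (1.32 to 4.67). Sst-type-like nuclei did not follow, with 91.7, 48.7, 45.7 and 76.9 CPM on 9 to 19 UMIs per library. The share of neurogliaform-like nuclei with a Pnoc UMI was 23.4%, 35.6%, 17.9% and 19.2%, and the depth per nucleus was also higher in P301S (median 1934 UMIs, against 1458 in WT).

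Pdyn, the dynorphin precursor (ENSMUSG00000027400, chr2:129686565-129699844, minus strand), was near the detection limit. Dentate granule neuron-like nuclei held 12, 1, 15 and 9 UMIs in P301S/EKO, P301S, EKO and WT, or 10.2, 3.37, 8.91 and 8.60 CPM, beside 4.72, 1.85, 7.49 and 3.85 CPM in glia-like nuclei. Sst-type-like nuclei held 5, 5, 5 and 1 UMIs, and the Pvalb-type-like, neurogliaform-like and Vip- or Cck-type-like subclasses held 0 in every library. No ratio could be judged in inhibitory neuron-like nuclei, and in dentate nuclei that of EKO over WT was 1.04 (0.425 to 2.69).

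Vip encodes vasoactive intestinal peptide (ENSMUSG00000019772, chr10:5639218-5647617, plus strand). In the Calb2 and Htr3a subcluster it was at 4809, 4826, 4681 and 4476 CPM in P301S/EKO, P301S, EKO and WT, and these 4 intervals overlapped. The ratios there ran from 0.996 for P301S/EKO over P301S (0.860 to 1.15) to 1.08 for P301S over WT (0.925 to 1.26). Over all inhibitory neuron-like nuclei Vip was 421, 407, 414 and 332 CPM, and no ratio passed the threshold. The Cnr1 and Krt73 subcluster held less of it, 209, 291, 96.2 and 395 CPM, and EKO was the lowest there with 15 UMIs, against 78 in WT (ratio 0.244, 0.130 to 0.427). A filter on depth moved this gene by more than the other 8: with only nuclei of at least 1100 UMIs, the log2 ratio of P301S/EKO over P301S was -1.28, against 0.05 with all nuclei, and that of P301S/EKO over EKO was -0.98. P301S/EKO had 123 inhibitory neuron-like nuclei under 1000 UMIs, P301S 0, EKO 105 and WT 14, and the part of this in the values was not tested.

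Cck encodes the precursor of cholecystokinin (ENSMUSG00000032532, chr9:121489824-121495694, minus strand) and had only 17.9% of its UMIs in inhibitory neuron-like nuclei, as Penk had 25.7%. In inhibitory neuron-like nuclei it was at 355, 430, 356 and 380 CPM in P301S/EKO, P301S, EKO and WT, with ratios between 0.826 and 1.13. In the Cnr1 and Krt73 subcluster it was at 1287, 1543, 1513 and 1376 CPM, and 64.2% to 76.5% of nuclei held it. Neurogliaform-like nuclei held 257, 287, 253 and 443 CPM; WT was the highest there, and the ratios were 0.647 for P301S over WT (0.445 to 0.940) and 0.571 for EKO over WT (0.375 to 0.859).

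In excitatory classes Penk and Cck were the genes with the most UMIs above the glia-like level. CA1 neuron-like nuclei had 417, 322, 405 and 398 CPM of Cck in P301S/EKO, P301S, EKO and WT, beside 167, 170, 131 and 221 CPM in glia-like nuclei. P301S was the lowest, with a ratio of 0.808 over WT (0.694 to 0.939) and of 1.29 for P301S/EKO over P301S (1.10 to 1.52), all within the threshold. Subicular or cortical excitatory nuclei had 307, 290, 229 and 297 CPM of Cck, and there EKO was the lowest. CA2 or CA3 nuclei had 193, 235, 163 and 247 CPM, close to the glia-like level, with an EKO over WT ratio of 0.661 (0.559 to 0.779). Dentate granule neuron-like nuclei had 163, 135, 92.1 and 176 CPM of Cck, which lay under the glia-like level in each library. Whether these nuclei express it was not tested. Penk in the same dentate nuclei gave 63 UMIs (53.7 CPM) in P301S/EKO, 2 UMIs (6.75 CPM) in P301S, 70 UMIs (41.6 CPM) in EKO and 38 UMIs (36.3 CPM) in WT. P301S alone was under its glia-like level of 17.5 CPM. The P301S over WT ratio was 0.186 (0.0217 to 0.719), on 158 dentate nuclei in P301S against 659 in WT. The P301S/EKO over P301S ratio was 7.96 (2.12 to 67.2). In CA1 neuron-like nuclei Penk was 58.7, 34.0, 55.3 and 53.0 CPM, again lowest in P301S, with a P301S over WT ratio of 0.642 (0.393 to 1.01) and a P301S/EKO over P301S ratio of 1.73 (1.07 to 2.86). Sst in CA1 neuron-like nuclei (26.9, 65.2, 33.4 and 30.8 CPM) lay under the glia-like level of the same library (59.1 to 128 CPM). Whether these nuclei express it was not tested. Npy in dentate nuclei of P301S/EKO was 73 UMIs, of which 41 came from 1 nucleus.

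**Figure D5:**
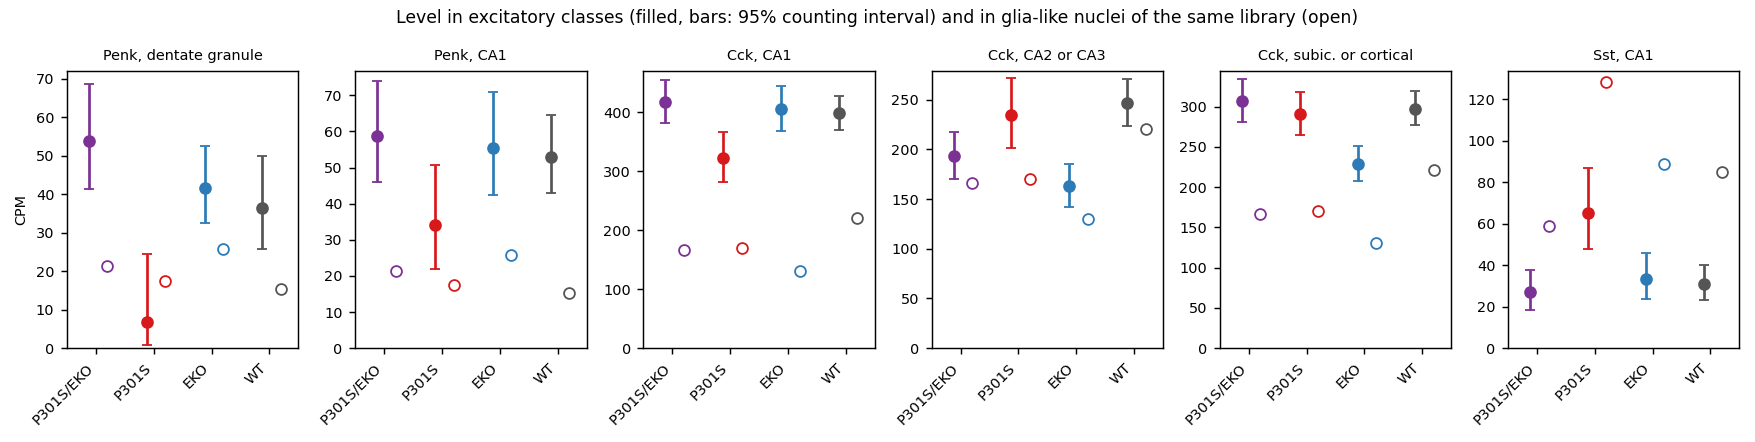
CPM of Penk, Cck and Sst in excitatory classes by library (filled points, bars are 95% Poisson counting intervals) with the level in glia-like nuclei of the same library (open points). Penk in dentate granule neuron-like nuclei is lowest in P301S (6.75 CPM), Cck in CA1 neuron-like nuclei lies above the glia-like level in all 4 libraries, and Sst in CA1 neuron-like nuclei lies below it in all 4.

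Taken over all neurons, the count of genes beyond the threshold was largest for P301S over WT. For P301S over WT, 7 of 10 genes passed upward and 0 downward, beside 17.1% and 2.52% of 13547 genes, and Sst was 287 CPM in P301S and 135 CPM in WT. For P301S/EKO over P301S, 3 of 10 passed downward (Sst, Vip and Pnoc) and 0 upward, beside 18.7% and 2.80% of 13291 genes. These values move with the inhibitory share of neurons (13.6% in P301S/EKO, 28.4% in P301S and 14.3% in WT), whose part in them was not tested. For EKO over WT those shares were 13.3% and 14.3%, but dentate granule neuron-like nuclei made up 30.1% of neurons in EKO and 15.8% in WT, whose part was not tested. In that comparison 4 of 10 were higher (Cort, Crhbp, Tac1 and Pdyn) and 0 lower, beside 3.64% and 7.51% of 13500 genes, and within dentate nuclei Pdyn stood at 8.91 CPM in EKO and 8.60 CPM in WT. In P301S/EKO against EKO, 0 of 10 were higher and 0 lower, beside 6.05% and 3.57% of 13203 genes.

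The number of positive nuclei was compared after each nucleus was thinned to 1000 UMIs, which left 448 inhibitory neuron-like nuclei in P301S/EKO, 580 in P301S, 491 in EKO and 581 in WT. Shallower nuclei were left out, 123, 0, 105 and 14 in that order, and their part in the thinned shares was not tested. Thinned shares of nuclei with a Npy UMI were 21.7%, 16.0%, 21.2% and 13.4% in P301S/EKO, P301S, EKO and WT, where the deposited depth had given 24.9%, 23.8%, 24.8% and 18.8%. Tac1 was seen in 8.26%, 5.69%, 10.6% and 4.82% of thinned nuclei, Crhbp in 11.4%, 7.41%, 12.4% and 7.23%, and Cort in 6.70%, 3.79%, 6.52% and 3.10%. At the deposited depth the shares were 11.7%, 9.48%, 12.9% and 8.24% for Tac1. They were 13.3%, 13.1%, 15.8% and 12.8% for Crhbp, and 9.46%, 5.52%, 9.73% and 5.04% for Cort. After thinning, both EKO libraries were above P301S and WT for these 4 genes, but the exact binomial intervals of P301S/EKO and P301S overlapped for all 4. Those of EKO and WT overlapped for Cort and Crhbp and not for Npy and Tac1. For Sst the thinned shares were 26.6%, 25.2%, 25.1% and 22.2%, and their exact binomial intervals overlapped. At least 1 of the 10 genes was seen in 76.9%, 80.7%, 73.0% and 73.5% of unthinned inhibitory neuron-like nuclei.

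Some pairs of genes met often in single nuclei and others almost never. Of nuclei with a Crhbp UMI, 64.5% in P301S/EKO, 64.5% in P301S, 50% in EKO and 64.5% in WT also held Sst, which is 29.9%, 27.1%, 29.9% and 30.1% of the Sst nuclei. Penk and Vip went together as well: 65.7%, 51.4%, 53.5% and 57.9% of Penk nuclei held Vip. Crhbp and Vip were seen together in 0, 4, 0 and 0 nuclei. Cort and Tac1 met in 17, 11, 31 and 5 nuclei, or 31.5%, 34.4%, 53.4% and 16.7% of the Cort nuclei, and EKO was the highest. Npy and Sst shared 62, 64, 60 and 53 nuclei. These counts are unthinned, and the depth per nucleus differed between libraries.

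Genes of the machinery that cuts and packs peptides were read in inhibitory neuron-like nuclei. Of 16 genes for processing and dense core vesicles, 0 were higher and 1 lower for P301S/EKO over P301S, 0 and 0 for P301S over WT, 1 and 2 for EKO over WT, and 0 and 1 for P301S/EKO over EKO. Over all genes 7.60% were higher and 9.62% lower for EKO over WT, and nothing is read from the list's counts. The background was 4.99% and 15.0% for P301S/EKO over P301S, 13.4% and 4.50% for P301S over WT, and 8.83% and 6.82% for P301S/EKO over EKO. For EKO over WT, Vgf, a granin-like precursor, was at 469 CPM in EKO and 276 CPM in WT, a ratio of 1.70. Pcsk2, a convertase that cuts many precursors, was at 452 CPM in EKO and 701 CPM in WT, a ratio of 0.645 (0.574 to 0.724). Ptprn2, a vesicle membrane protein, was at 21.2 CPM in EKO and 36.7 CPM in WT. The median log2 ratio of the list was 0.10 for EKO over WT, beside 0.01 over all genes.

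Receptors for these peptides were read over all neurons. Of 20 receptor genes, 17 could be judged for P301S over WT, with 7 higher and 2 lower, and 16 for P301S/EKO over P301S, with 2 higher and 6 lower. Over all genes 17.1% were higher and 2.52% lower in the P301S to WT comparison, and 2.80% and 18.7% in that of P301S/EKO with P301S. Oprm1, the mu opioid receptor, was at 4.02 CPM in P301S (20 UMIs) and 1.12 CPM in WT (10 UMIs), and Npy5r, a neuropeptide Y receptor, at 8.64 CPM in P301S and 13.9 CPM in WT. In P301S/EKO against P301S, Oprk1, the kappa opioid receptor, was at 1.99 CPM in P301S/EKO and 8.84 CPM in P301S, and Npy5r at 15.2 CPM in P301S/EKO and 8.64 CPM in P301S. The inhibitory share of neurons differed in both comparisons, and its part was not tested. For EKO over WT, 0 of 18 were higher and 4 lower, beside 3.64% and 7.51% of all genes. Sstr4, a somatostatin receptor, was at 1.68 CPM in EKO and 5.37 CPM in WT, and Cckbr, a cholecystokinin receptor, at 6.45 CPM in EKO and 10.3 CPM in WT. Dentate granule neuron-like nuclei made up 30.1% of neurons in EKO and 15.8% in WT, and CA1 neuron-like nuclei 13.7% and 19.7%. The part of these shares was not tested. None of 15 passed for P301S/EKO over EKO (0 higher and 0 lower), beside 6.05% of all genes higher and 3.57% lower.

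Other peptide genes were sparse, and of 13 only 3 to 5 could be judged per comparison in inhibitory neuron-like nuclei. Crh, the hormone that the Crhbp protein binds, was at 14.3 CPM in P301S/EKO, 32.3 CPM in P301S, 28.3 CPM in EKO and 13.1 CPM in WT, on 13, 42, 28 and 16 UMIs. Its ratio was 2.48 for P301S over WT (1.36 to 4.72) and 0.443 for P301S/EKO over P301S (0.218 to 0.840), and 2.17 for EKO over WT (1.13 to 4.29). Among 13 genes of GABA neuron identity, 12 were within the threshold for P301S/EKO over P301S, 12 for P301S over WT, 11 for EKO over WT and 12 for P301S/EKO over EKO. The GABA-making enzyme gene Gad2 was at 169 CPM in P301S/EKO and 258 CPM in P301S (ratio 0.657). The median log2 ratio of this list for EKO over WT was 0.28, beside 0.01 over all genes and 0.58 over the 9 members.

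Across 87 points (24 clusters and subclusters by library, at least 20 nuclei each), the pattern most like Sst was that of Cacna2d2 (Pearson r 0.64 on log2 of CPM + 10, among 11105 genes), and that most like Cort and Tac1 was Lhx6 (0.71 and 0.75). Crhbp was nearest to Rbp4 (0.70), Npy to Maf (0.73), Penk to Calb2 (0.65), Vip to Tac2 (0.86), Cck to Cadps2 (0.61), Pnoc to Gad2 (0.90) and Pdyn to Eya1 (0.57). The points share libraries and depth, so these values are descriptions.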

How the data were processed

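RNA of single nuclei was measured in 4 pooled libraries, 1 per genotype, with groups taken from the labels. The authors deposited whole-number UMI counts per gene and barcode; per the submitters' processing notes they used Cell Ranger, Seurat and the mm10 genome, and neither versions nor the handling of intron reads are stated there. Files held 6767, 3156, 5982 and 6145 barcodes with 11358953, 8369762, 10283013 and 14251675 UMIs (P301S/EKO, P301S, EKO, WT).

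A barcode was kept when it held 200 genes or more and no more than 5% of its UMIs were mitochondrial. Scrublet's own threshold called 0 doublets in each library, so the 302, 74, 261 and 271 highest scores were removed (0.8% per 1000 barcodes), leaving 5274, 2860, 5199 and 5234 nuclei. Clustering (scanpy 1.11.5, 2000 variable genes, 30 components, 15 neighbours, Leiden resolution 1) was run without the 10 genes, without sex-linked and mitochondrial genes, and without Mapt, Prnp and Apoe. Class names needed at least 3 markers 1.5-fold above other nuclei; 2 unnamed clusters (947 and 119 nuclei) were counted with neurons. Inhibitory neuron-like nuclei were clustered again.

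Counts were summed per class and library and scaled to CPM. Intervals are 95%: exact Poisson for levels, exact conditional binomial for ratios, Clopper-Pearson for shares, with a floor of 3 counts for a share of 0; all cover counting error only. Ratios needed 20 UMIs over both libraries. The tools were scipy 1.17.1, igraph 0.11.9, scikit-learn 1.9.0, matplotlib 3.10.9, pandas 2.3.3 and numpy 2.4.6 under Python 3.11.15, and the ratio code was tested on simulated data. Positions are from GENCODE vM21. The genes and lists were chosen with earlier results of these data known. All 10 genes were reported, with the gene most like each in pattern. Of the list genes only a selection was described above, which left out some of the largest ratios. Among these were Vipr2 in all neurons (0.288 for EKO over WT), and Cartpt (5.16 for P301S/EKO over EKO) and Bdnf (0.298 for P301S over WT) in inhibitory neuron-like nuclei. Alternatives were scaling, filters on genes and UMIs, doublets kept, resolution 2, a Gad1 and Gad2 gate, members kept in clustering, free RNA subtracted, equal weight per nucleus, a minimum of 1 UMI and thinning; left-out hormone-positive nuclei, equal subclass shares and a left-out highest nucleus were chosen after seeing the data.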

Additional observations from a re-analysis of the deposited data

Results flagged for a closer look

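Several genes moved in opposite directions under the same contrast on the 2 backgrounds; none of these differences was tested, as each rests on 4 single libraries. Over all neurons, the log2 ratio without over with Apoe was negative on the P301S background (P301S/EKO over P301S) and positive on the other (EKO over WT) for Sst (-0.72 and 0.30), Npy (-0.43 and 0.57), Tac1 (-0.51 and 1.08) and Vip (-0.85 and 0.22). These values move with the inhibitory share of neurons, 13.6%, 28.4%, 13.3% and 14.3% in P301S/EKO, P301S, EKO and WT, whose part was not tested. In inhibitory neuron-like nuclei alone, the same 4 genes had log2 ratios of 0.22, 0.20, 0.47 and 0.05 for P301S/EKO over P301S.

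For Crhbp over all neurons, the log2 ratio was -0.39 for P301S/EKO over EKO and 0.42 for P301S over WT. In inhibitory neuron-like nuclei alone both were negative for Crhbp, -0.47 and -0.33 in that order. For Npy in inhibitory neuron-like nuclei the log2 ratio was -0.20 for P301S/EKO over EKO and 0.56 for P301S over WT. The difference was -0.76 (95% counting interval -1.02 to -0.51). The same difference was -0.81 for Tac1 (-1.32 to -0.31), -0.90 for Cort (-1.63 to -0.16) and -0.35 for Sst (-0.53 to -0.18). For the other 5 genes the interval included 0: Crhbp -0.14, Penk -0.15, Vip -0.27, Cck -0.18 and Pnoc -0.38. In Vip- or Cck-type-like nuclei the difference for Npy had the opposite sign, 1.00 (0.21 to 1.80). With nuclei picked by Gad1, Gad2 and Slc17a7 UMIs, the P301S over WT value for Cort was -0.92, against 0.51 by clusters.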

How the results depend on the processing

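With 4 single libraries, nothing here measures the spread between mice. Of 432 ratios under alternatives in inhibitory neuron-like nuclei, 407 moved by less than their counting interval and 25 moved further, 15 of them with nuclei picked by a gate on Gad1, Gad2 and Slc17a7 UMIs, which kept only 155, 227, 170 and 203 nuclei in P301S/EKO, P301S, EKO and WT. The count of genes beyond 1.5-fold for P301S over WT was 1, but 4 with doublets kept, 2 at resolution 2, 3 with the gate and 2 with a minimum of 1 UMI. For P301S/EKO over EKO it was 0, but 2 with nuclei of at least 1100 UMIs and 5 with the gate. For EKO over WT it was 4, and 4 to 6 under the alternatives. For P301S/EKO over P301S it was 2, and 2 to 3. No share of all genes under the same alternative is given beside these counts. They are therefore not set against a background, and nothing is read from how they differ. With the gate the log2 ratio for P301S over WT was -0.92 for Cort (0.51 without the gate), and for P301S/EKO over EKO -0.84 for Crhbp (-0.47 without it). The cause was not tested. Thinning to 1000 UMIs moved 29 of 40 shares of positive nuclei. No paired analysis was possible because each genotype had 1 library and the labels carry no replicate numbers.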

Other observations

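In the unnamed neuron clusters, 55 of 72 Npy UMIs of P301S/EKO came from 1 nucleus, and 1 WT nucleus held 36 of the 70 Npy UMIs of the CA2 or CA3 class. Cga, the shared hormone subunit gene, gave 214 UMIs in 5 inhibitory neuron-like nuclei of the EKO library, and 0 in those of P301S/EKO, P301S and WT.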
